A study of Homo sapiens with 6 samples.

Results

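The cytochrome P450 enzymes and the conjugating enzymes that act after them were examined in Caco-2 cells in which SDC1 had been targeted by siRNA. Their genes were taken by symbol: the CYP families (without CYP26A1 and CYP26B1), the UDP-glucuronosyltransferases of families UGT1, UGT2 and UGT3, the cytosolic sulfotransferases (SULT), and the glutathione S-transferases of classes GSTA, GSTM, GSTP, GSTT, GSTO, GSTZ and GSTK. Only probe sets that the platform annotation ties to a single gene symbol were used. This gave 151 probe sets for 85 genes, out of 41091 such probe sets for 19775 genes. Of the 85 genes, 53 were CYP genes and 32 encoded conjugating enzymes, namely 8 UGT, 8 SULT and 16 GST genes. Antisense, pseudogene and read-through symbols made up 8 of the 53 CYP entries.

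Caco-2 is an established line from a human colorectal adenocarcinoma that is widely used as a model of the intestinal epithelium. One group of 3 arrays came from cells transfected with siRNA against SDC1, which encodes the cell surface proteoglycan syndecan-1, and the other group of 3 arrays from cells transfected with a negative control siRNA. Total RNA was measured on Affymetrix arrays with 54675 probe sets. The labels name neither the siRNA sequence nor its dose nor the time of harvest, and they do not say whether each array had a culture of its own. The p-values below therefore cover only the scatter among these arrays, and that scatter may be technical.

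Cytochrome P450 enzymes are heme proteins that insert an oxygen atom into fats, steroids, vitamins and foreign compounds, with electrons that most of them receive from NADPH through the reductase POR. UGT, SULT and GST enzymes then attach glucuronic acid, sulfate or glutathione, which makes the products easier to export. In the intestine CYP3A4 and its relatives oxidise many oral drugs before they reach the blood, and CYP1A1 is known for its induction by planar aromatic compounds through the aryl hydrocarbon (Ah) receptor.

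SDC1 itself had log2 values of -0.50, -0.62 and -0.34 in the SDC1 siRNA arrays, against 0.37, 0.35 and 0.35 in the control siRNA arrays, so the groups did not overlap. It fell by 0.84 ± 0.08 on the log2 scale (SE, n = 3 each), which is 1.79-fold, with a limma p adjusted by Benjamini-Hochberg over all 19775 genes of 0.0237. Leaving out an array moved that adjusted p to between 0.0614 and 0.326. All values are on the log2 scale, with the middle of the 6 arrays set to 0 for every probe set in the deposited table, so levels cannot be compared between genes. The brightness bracket of each probe set could still be read from the numerical steps in which its values are stored. The brackets are log2 8 to 16 (brightest), 4 to 8 (middle) and below 4 (dimmest). The value of a gene is the mean of its probe sets in the brightest bracket it reaches. Of the 85 enzyme genes, 11 were in the brightest bracket, 48 in the middle and 26 in the dimmest. These are 12.9%, 56.5% and 30.6%, where all genes gave 30.2%, 45.9% and 23.9%.

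None of the 85 genes passed an adjusted p of 0.05, at which 0.0253% of all genes (5 of 19775) were called. At an unadjusted p under 0.05 there were 8 (9.41%), against 10.6% of all genes. Of these, 3 were higher in the SDC1 siRNA arrays (CYP4A11, CYP7A1 and CYP4F2), where 5.43% of all genes were, and 5 were lower (CYP1A1, CYP3A5, GSTM3, CYP20A1 and GSTZ1), where 5.19% of all genes were. The arrays of the groups did not overlap for 12 genes (14.1%), against 16.7% of all genes: 5 were higher in SDC1 siRNA arrays, as were 8.26% of all genes, and 7 were lower, as were 8.47%. Both shares lay near those of all genes, and are no result about the members. There were 44 genes with a difference above 0 and 41 with a difference below it, and the median was 0.01, which equals the median over all genes. Their median size was 0.08 on the log2 scale, again as over all genes, beside a median standard error of 0.09.

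The differences ran from -0.54 for CYP1A1 to 0.33 for CYP4A11. The 95% confidence interval of the difference lay within 1.5-fold in both directions for 81 of the 85 genes (95.3%), against 96.9% of all genes. The 4 genes whose intervals reached beyond were CYP1A1, CYP2A7, CYP3A5 and CYP4A11. Of the 85 differences, 76 lay between the 5th and the 95th percentile of all genes (-0.21 to 0.22). CYP1A1 was placed at 14 among all 19775 genes when ranked by p, GSTM3 at 115 and CYP3A5 at 146.

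**Figure D1:**
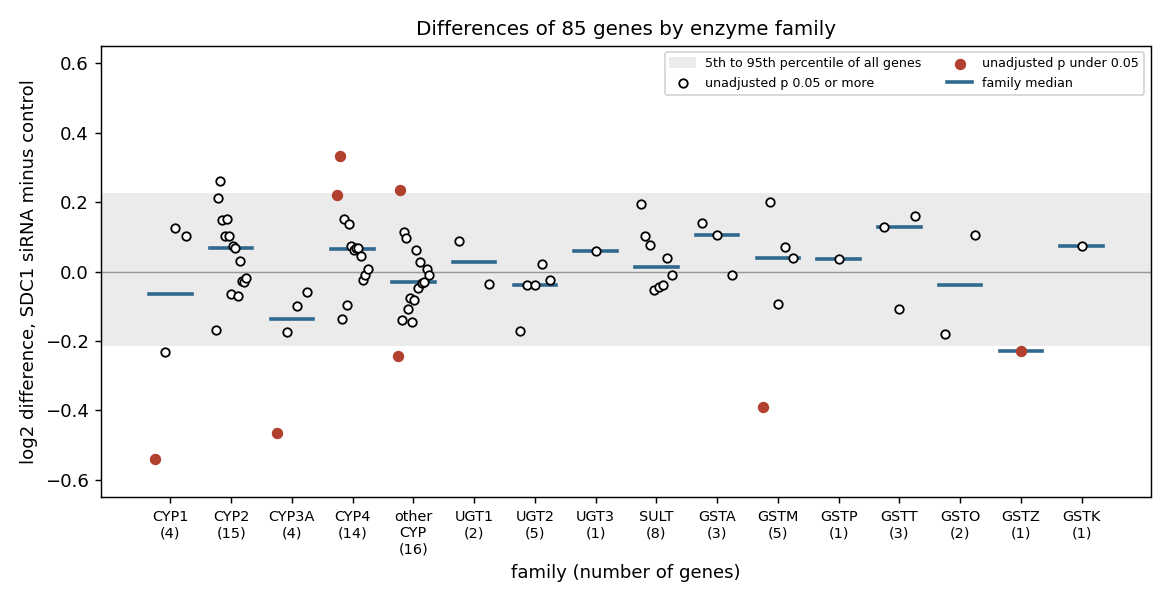
Log2 difference (SDC1 siRNA minus control siRNA, vertical axis) of each of the 85 genes, grouped by family (horizontal axis, number of genes in brackets), with bars at the family medians and a grey band from the 5th to the 95th percentile of all genes. CYP1A1 at -0.54, CYP3A5 at -0.46 and GSTM3 at -0.39 lie well below the band, and CYP4A11 at 0.33 lies above it.

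By family, the median difference was -0.07 for CYP1 (4 genes), 0.07 for CYP2 (15), -0.14 for CYP3A (4), 0.07 for CYP4 (14) and -0.03 for the other CYP genes (16). Among the conjugating enzymes it was 0.03 for UGT1 (2 genes), -0.04 for UGT2 (5), 0.06 for UGT3A1 and 0.01 for SULT (8). The GST classes gave 0.11 for GSTA (3), 0.04 for GSTM (5), 0.04 for GSTP1, 0.13 for GSTT (3), -0.04 for GSTO (2), -0.23 for GSTZ1 and 0.07 for GSTK1. Apart from CYP3A and GSTZ1, each of these medians was 0.13 or less in size. In CYP1 and CYP3A the median was made by unlike members: each group had a single gene with an unadjusted p under 0.05, CYP1A1 in CYP1 and CYP3A5 in CYP3A. No test was made between families, because their genes are not replicates of a condition.

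The CYP1 group comprised CYP1A1, CYP1A2, CYP1B1 and the antisense transcript CYP1B1-AS1, measured by 9 probe sets. CYP1A1, which oxidises polycyclic aromatic compounds and is the best known target of the Ah receptor, had the lowest difference of all 85 genes. The promoters of CYP1A1 and its neighbour CYP1A2 are shown because these genes lie side by side on chromosome 15. Their differences were not told apart (exact permutation p = 0.2, 0.257 adjusted over 9 gene pairs). Any part of the promoter letters in the values was not tested. Each run covers 250 bases before the transcription start and 50 from it on, from RefSeq on GRCh38.p14, read on the gene's strand. Capitals mark GCGTG, the core bound by the Ah receptor and ARNT, which was searched on both strands.
CYP1A1 promoter (chr15:74725479-74725778, minus strand): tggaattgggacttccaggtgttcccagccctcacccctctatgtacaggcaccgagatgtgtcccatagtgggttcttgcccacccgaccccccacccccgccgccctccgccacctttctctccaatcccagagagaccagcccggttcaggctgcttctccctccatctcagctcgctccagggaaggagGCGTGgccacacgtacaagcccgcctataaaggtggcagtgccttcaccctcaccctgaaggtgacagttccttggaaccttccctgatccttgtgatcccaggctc
CYP1A2 promoter (chr15:74748595-74748894, plus strand): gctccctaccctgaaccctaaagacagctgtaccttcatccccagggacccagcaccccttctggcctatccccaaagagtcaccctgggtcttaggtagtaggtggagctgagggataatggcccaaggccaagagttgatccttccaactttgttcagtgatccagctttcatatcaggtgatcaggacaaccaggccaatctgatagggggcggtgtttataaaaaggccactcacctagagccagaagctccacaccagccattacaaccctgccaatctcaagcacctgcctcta
The CYP1A1 window held GCGTG 57 bases before the start, and the CYP1A2 window held none. These letters occurred in 36.5% of 35116 RefSeq promoters of this length and in 18 of the 60 members with a promoter sequence (30%), so a match in this window is common.

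CYP1A1 had log2 values of -0.36, -0.22 and -0.26 in the SDC1 siRNA arrays, against 0.22, 0.35 and 0.22 in the control siRNA arrays. Every SDC1 siRNA array lay below every control siRNA array, and the gap between the groups exceeded the range within either. The means were -0.28 ± 0.08 in SDC1 siRNA arrays and 0.26 ± 0.08 in control siRNA arrays (SD, n = 3 each). The difference was -0.54 ± 0.08 (SE), a 1.45-fold lower signal, with a 95% interval of -0.71 to -0.37, an unadjusted limma p of 7.13e-05 and an adjusted p of 0.0958. It rested on a single probe set, in the middle bracket. Under the alternative settings the difference stayed between -0.57 and -0.50 and the unadjusted p stayed under 0.05 in 13 of 13, while the adjusted p ran between 0.0404 and 0.413. The lowest of these, with arrays weighted by their scatter, was the setting in which CYP1A1 passed an adjusted p of 0.05. In bulk RNA such as this, fewer cells that express a gene and less of its RNA per cell cannot be told apart.

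The other CYP1 genes had groups that overlapped. CYP1A2, the caffeine-oxidising relative of CYP1A1 that is chiefly a liver enzyme, had 0.04, -0.04 and -0.33 in SDC1 siRNA arrays, against 0.11, 0.34 and -0.08 in control siRNA arrays. These groups overlapped, with a difference of -0.23 ± 0.13 (limma adjusted p = 0.574), and its 2 probe sets disagreed in sign at -0.23 and 0.13. CYP1B1, which oxidises estradiol and aromatic compounds outside the liver, had -0.15, 0.21 and 0.16 in SDC1 siRNA arrays, against -0.02, -0.10 and 0.02 in control siRNA arrays. The difference was 0.10 ± 0.10 (limma adjusted p = 0.777) with overlapping groups, and its 4 probe sets ranged between -0.10 and 0.10. The antisense CYP1B1-AS1 differed by 0.13 ± 0.09 (limma adjusted p = 0.653), also with overlap. Set directly against each other, the CYP1A1 difference minus that of CYP1B1 was -0.64 (exact two-sided permutation p = 0.1, the smallest that 3 arrays against 3 allow) and minus that of CYP1A2 -0.31 (exact p = 0.2). These were among 9 gene pairs chosen after their values were seen, and adjusted over the 9 the exact permutation p-values were 0.15 and 0.257.

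The CYP3A group comprised CYP3A5, CYP3A4, CYP3A43 and the read-through transcript CYP3A7-CYP3A51P, measured by 14 probe sets, 8 of which carry the suffix _x_at, which marks sets whose probes can match other transcripts. CYP3A4 is the main drug-oxidising enzyme of the small intestine and liver, and CYP3A5 is a close relative with overlapping substrates. Their promoters are shown because both hold the same pair of elements, whose part in the values was not tested. Both windows held the elements AGTTCA and AGGTCA, known as letters bound by nuclear receptors such as PXR and VDR. The first is on the opposite strand, so that it reads TGAACT here, and 6 bases separate it from the second. Capitals mark both elements.
CYP3A5 promoter (chr7:99679947-99680246, minus strand): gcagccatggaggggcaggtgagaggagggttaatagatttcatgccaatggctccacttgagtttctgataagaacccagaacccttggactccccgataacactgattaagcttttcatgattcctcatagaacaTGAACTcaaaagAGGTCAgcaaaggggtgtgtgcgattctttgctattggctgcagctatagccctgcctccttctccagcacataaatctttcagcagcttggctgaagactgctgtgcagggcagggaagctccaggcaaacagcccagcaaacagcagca
CYP3A4 promoter (chr7:99784135-99784434, minus strand): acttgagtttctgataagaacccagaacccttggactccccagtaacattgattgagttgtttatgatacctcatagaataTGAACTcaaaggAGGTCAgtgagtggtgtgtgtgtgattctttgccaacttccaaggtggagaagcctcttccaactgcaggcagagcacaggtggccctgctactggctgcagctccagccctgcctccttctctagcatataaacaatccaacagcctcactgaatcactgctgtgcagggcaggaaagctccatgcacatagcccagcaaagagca
The pair began 113 bases before the start in CYP3A5 and 169 bases before it in CYP3A4. Over both strands AGGTCA occurred in 13.8% of all promoters and AGTTCA in 10.4%, and in 16 (26.7%) and 11 (18.3%) of the 60 members with a promoter sequence.

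CYP3A5 had log2 values of -0.13, -0.12 and -0.33 in the SDC1 siRNA arrays, against 0.42, 0.27 and 0.12 in the control siRNA arrays. The groups did not overlap, and control siRNA replicate 3 lay nearest to the SDC1 siRNA arrays. The means were -0.19 ± 0.12 in SDC1 siRNA arrays and 0.27 ± 0.15 in control siRNA arrays (SD, n = 3 each). The difference was -0.46 ± 0.10 (SE), a 1.38-fold lower signal, with a 95% interval of -0.69 to -0.24, an unadjusted limma p of 0.00119 and an adjusted p of 0.16. The unadjusted p stayed under 0.05 in 13 of 13 alternative settings, with differences of -0.54 to -0.39 and adjusted p-values of 0.0833 to 0.488.

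The 4 probe sets of CYP3A5 were not alike. The probe set 205765_at, in the dimmest bracket, had -0.23, -0.60 and -0.40 in SDC1 siRNA arrays, against 0.30, 0.26 and 0.23 in control siRNA arrays. The probe set 214234_s_at had -0.26, -0.21 and -0.34 in SDC1 siRNA arrays, against 0.30, 0.21 and 0.24 in control siRNA arrays. In both, the groups were far apart: the differences were -0.67 ± 0.11 and -0.52 ± 0.08, each with a limma adjusted p of 0.255 over all probe sets tested singly. The probe set 214235_at gave -0.41 ± 0.15 without overlap, and 243015_at, in the dimmest bracket, gave 0.03 ± 0.13 with overlap. Thus 3 of the 4 CYP3A5 probe sets had an unadjusted p under 0.05 (0.000157, 0.000164 and 0.0213 by limma). Among all 151 probe sets 12 had such a p, where 8.33% of the 54613 probe sets tested did, and none passed an adjusted p of 0.05, as none of the 54613 did.

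CYP3A4 had -0.07, 0.04 and -0.03 in SDC1 siRNA arrays, against 0.10, -0.06 and 0.08 in control siRNA arrays, and the groups overlapped. Its difference was -0.06 ± 0.07 with a 95% interval of -0.23 to 0.11 (limma adjusted p = 0.834), and its 5 probe sets ranged between -0.07 and 0.11. CYP3A43, a relative with little known drug-oxidising activity, differed by -0.10 ± 0.08 (limma adjusted p = 0.702), with 4 probe sets between -0.23 and 0.07, all of them _x_at sets. CYP3A7-CYP3A51P, whose CYP3A7 portion is the fetal liver form, had -0.23, 0.09 and -0.31 in SDC1 siRNA arrays, against -0.02, 0.07 and 0.02 in control siRNA arrays, and differed by -0.17 ± 0.11 (limma adjusted p = 0.608). The CYP3A7-CYP3A51P value rests on a single _x_at set, 211843_x_at. Probe sets that also name CYP3A7 were not members, and they gave -0.03 (205939_at) and -0.0062 (243609_at), both with overlap. All 4 CYP3A genes thus had differences below 0, but for CYP3A4, CYP3A43 and CYP3A7-CYP3A51P the intervals included 0. The CYP3A5 difference minus that of CYP3A4 was -0.41, and minus that of CYP3A43 it was -0.36, each at the smallest exact permutation p that the design allows, 0.1 (0.15 adjusted over the 9 pairs).

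Set side by side, the CYP1 group spanned differences of -0.54 to 0.13 with 2 of 4 genes below 0, and the CYP3A group spanned -0.46 to -0.06 with 4 of 4 below 0. The averages over the CYP3A genes were -0.10, -0.02 and -0.17 in the SDC1 siRNA arrays, against 0.11, 0.10 and 0.09 in the control siRNA arrays. They include CYP3A5, the only CYP3A gene whose groups did not overlap. For CYP3A4, CYP3A43 and CYP3A7-CYP3A51P the groups overlapped, so these averages do not show a shift of the whole group. The lowest members, CYP1A1 and CYP3A5, did not differ from each other beyond their spread (difference -0.08, exact permutation p = 0.6).

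**Figure D2:**
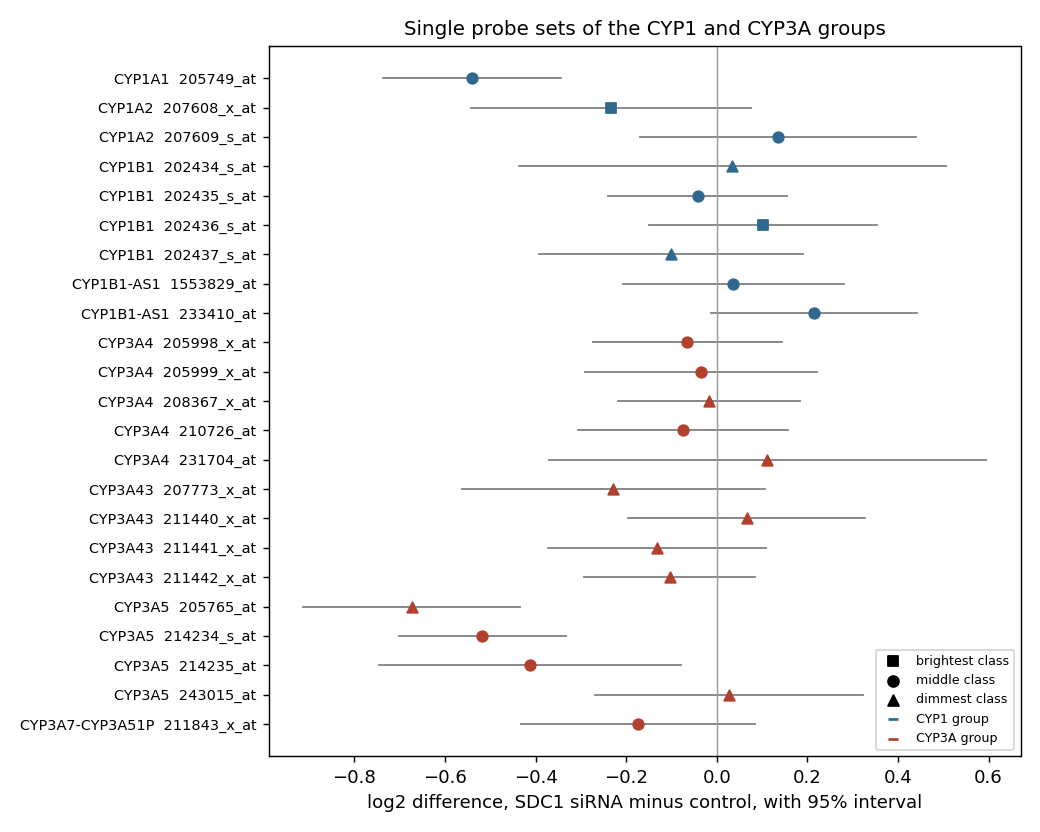
Log2 difference (SDC1 siRNA minus control siRNA, horizontal axis) with its 95% interval for each of the 23 probe sets of the CYP1 and CYP3A groups. Squares, circles and triangles mark the brightest, middle and dimmest bracket. The intervals of CYP1A1 and of 3 of the 4 CYP3A5 probe sets lie below 0, and all others include 0.

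GSTM3 had the third-lowest difference. It belongs to the mu class of glutathione S-transferases, which couple glutathione to electrophiles. Its promoter is given because it was the conjugating enzyme with the lowest difference, and capitals mark GCGTG, found 127 bases before the start.
GSTM3 promoter (chr1:109740989-109741288, minus strand): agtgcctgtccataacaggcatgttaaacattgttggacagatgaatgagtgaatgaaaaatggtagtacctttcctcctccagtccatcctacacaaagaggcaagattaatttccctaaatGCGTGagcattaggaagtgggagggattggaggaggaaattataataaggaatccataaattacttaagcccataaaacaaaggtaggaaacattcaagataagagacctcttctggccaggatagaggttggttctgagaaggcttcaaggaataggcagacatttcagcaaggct
GSTM3 had log2 values of -0.24, -0.15 and -0.12 in the SDC1 siRNA arrays, against 0.33, 0.22 and 0.12 in the control siRNA arrays, without overlap. The means were -0.17 ± 0.06 in SDC1 siRNA arrays and 0.22 ± 0.10 in control siRNA arrays (SD, n = 3 each). The difference was -0.39 ± 0.08 (SE), a 1.31-fold lower signal, with a 95% interval of -0.57 to -0.21, an unadjusted limma p of 0.000932 and an adjusted p of 0.159. It came from 202554_s_at, in the brightest bracket. The second GSTM3 probe set, 235867_at in the middle bracket, gave -0.20 ± 0.11, again without overlap, and this value replaces the first when _s_at sets are left out. Of 13 alternative settings, 12 kept the unadjusted p under 0.05.

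The other mu class genes had differences of 0.20 ± 0.10 for GSTM5, 0.07 ± 0.13 for GSTM2, 0.04 ± 0.09 for GSTM1 and -0.09 ± 0.12 for GSTM4, with limma adjusted p-values of 0.517, 0.896, 0.923 and 0.825. Their groups overlapped. The second probe set of GSTM4, 204149_s_at in the dimmest bracket, gave 0.32 ± 0.14 without overlap (limma adjusted p = 0.594 over all probe sets), opposite in sign to its reported value. GSTM1, GSTM2 and GSTM4 are measured in whole or in part by 4 _x_at sets, so their values may not be independent. The GSTM3 difference minus that of GSTM5 was -0.59, minus that of GSTM2 -0.46 and minus that of GSTM1 -0.43, each with an exact permutation p of 0.1 (0.15 adjusted over the 9 pairs). Minus that of GSTM4 it was -0.30 (exact permutation p = 0.3), with GSTM4 taken from its brighter probe set alone.

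Among the remaining GST genes, GSTZ1, which isomerises maleylacetoacetate in tyrosine breakdown, had -0.31, -0.17 and 0.00 in SDC1 siRNA arrays, against 0.07, -0.00 and 0.13 in control siRNA arrays. SDC1 siRNA replicate 3 reached the control siRNA arrays, and the difference was -0.23 ± 0.09 (limma unadjusted p = 0.0362, adjusted p = 0.436). It was -0.15 without SDC1 siRNA replicate 1, and the unadjusted p stayed under 0.05 in 9 of 13 alternative settings. GSTT1 and GSTT2 of the theta class had groups that did not overlap but lay in opposite directions, at 0.13 ± 0.07 (limma adjusted p = 0.546) and -0.11 ± 0.07 (limma adjusted p = 0.633). The GSTT1 value averages 2 probe sets in the dimmest bracket, 203815_at at 0.01 with overlap and 232193_at at 0.24 without. GSTP1, the pi class enzyme that is abundant in many tumours and was in the brightest bracket here, differed by 0.04 ± 0.08 (95% interval -0.14 to 0.21). GSTA1, an alpha class enzyme of liver and gut, differed by 0.14 ± 0.11, and GSTO2 of the omega class by -0.18 ± 0.11, both with overlap. Their second probe sets, in the dimmest bracket, had the opposite sign: 203924_at of GSTA1 at -0.01 and 229155_at of GSTO2 at 0.05.

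**Figure D3:**
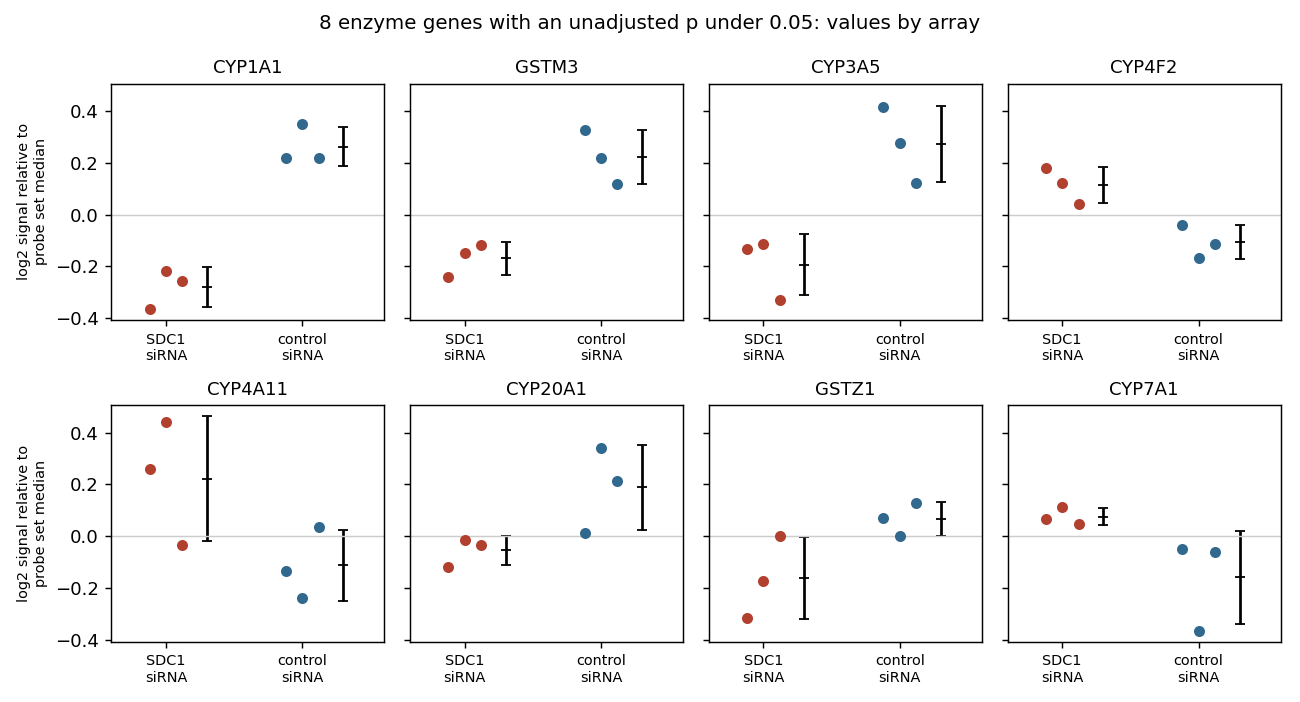
Log2 values relative to the probe set median (vertical axis) of the 8 genes with an unadjusted p under 0.05, in the 3 SDC1 siRNA arrays (red) and the 3 control siRNA arrays (blue), with bars for the mean ± SD. The groups do not overlap for CYP1A1, GSTM3, CYP3A5, CYP4F2, CYP20A1 and CYP7A1, and they overlap for CYP4A11 and GSTZ1.

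None of the 15 CYP2 genes had an unadjusted p under 0.05, where 10.6% of all genes had one. Their differences ran from -0.17 to 0.26. CYP2B6, which oxidises drugs such as bupropion, had 0.00, -0.15 and -0.09 in SDC1 siRNA arrays, against 0.06, 0.00 and 0.21 in control siRNA arrays (difference -0.17 ± 0.08, limma adjusted p = 0.514). Its second probe set, 217133_x_at in the dimmest bracket, had the opposite sign at 0.08. CYP2D6, a polymorphic drug-oxidising enzyme, differed by 0.21 ± 0.11 (limma adjusted p = 0.527), with 2 probe sets at 0.24 and 0.18. CYP2A7, in the dimmest bracket, differed by 0.26 ± 0.16 (limma adjusted p = 0.625) with 0.23, 0.50 and -0.16 in SDC1 siRNA arrays, against 0.13, -0.21 and -0.13 in control siRNA arrays. It was 0.10 without SDC1 siRNA replicate 2 and 0.44 without SDC1 siRNA replicate 3. In CYP2B6, CYP2D6 and CYP2A7 the groups overlapped. The long-chain fatty acid hydroxylase CYP2U1 had probe sets that disagreed in sign. Its reported difference was 0.15 ± 0.09 (limma adjusted p = 0.631), and its 4 probe sets ranged from -0.18 to 0.33, the highest being 226402_at in the dimmest bracket.

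The CYP4 enzymes hydroxylate fatty acids and eicosanoids at the end of the chain. The 14 CYP4 entries had 10 differences above 0 and 4 below, and 2 had an unadjusted p under 0.05 (14.3%, against 10.6% of all genes). The 10 include the pseudogenes CYP4F30P, CYP4F62P and CYP4Z2P, which encode no such enzyme, at 0.06, 0.07 and 0.04. CYP4F2, which hydroxylates a leukotriene and vitamin K, had 0.18, 0.12 and 0.04 in SDC1 siRNA arrays, against -0.04, -0.17 and -0.11 in control siRNA arrays. Every SDC1 siRNA array lay above every control siRNA array, and the difference was 0.22 ± 0.07, a 1.16-fold higher signal (limma unadjusted p = 0.015, adjusted p = 0.342). CYP4A11, the main omega-hydroxylase of medium-chain fatty acids, had 0.26, 0.44 and -0.04 in SDC1 siRNA arrays, against -0.13, -0.24 and 0.04 in control siRNA arrays. Replicate 3 of both groups lay within the range of the other group, the difference was 0.33 ± 0.13 (limma unadjusted p = 0.0283, adjusted p = 0.406), and its second probe set gave -0.06. The unadjusted p stayed under 0.05 in 11 of 12 alternative settings for CYP4F2 and in 7 of 12 for CYP4A11. Both CYP4A11 sets and the single CYP4F2 set are _x_at sets. Probe sets that name a second gene as well were not members, and in all of those below the groups overlapped. The set 206514_s_at, which names CYP4F2 and CYP4F3, gave -0.04. Those that name CYP4A22 and CYP4A11 gave 0.21 (1554837_a_at), -0.11 (1554931_at) and 0.07 (217319_x_at). CYP4V2, a fatty acid hydroxylase of the retina, differed by -0.14 ± 0.07 without overlap (limma adjusted p = 0.516). That value is the mean of 226745_at at -0.28 and 229959_at at 0.0017, and singly each overlapped. Its sets in the dimmest bracket, 228391_at at -0.16 and 235719_at at 0.05, overlapped too. CYP4F8, which acts on prostaglandins, differed by 0.15 ± 0.09 with overlap (limma adjusted p = 0.579).

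Other CYP genes have set metabolic roles. Of 6 sterol and bile acid enzymes, 3 had differences above 0 and 3 below, and the 3 above 0 had groups that did not overlap (50%, against 16.7% of all genes). CYP7A1, the rate-limiting enzyme of bile acid synthesis, had 0.07, 0.11 and 0.05 in SDC1 siRNA arrays, against -0.05, -0.37 and -0.06 in control siRNA arrays. The groups did not overlap, and control siRNA replicate 2 stood apart from the other control siRNA arrays. The difference was 0.23 ± 0.10 (limma unadjusted p = 0.0375, adjusted p = 0.44), from a probe set in the dimmest bracket, and it was 0.13 without control siRNA replicate 2. CYP7A1 kept an unadjusted p under 0.05 in 7 of 12 alternative settings. CYP39A1, an oxysterol hydroxylase, and CYP27A1, the mitochondrial sterol hydroxylase, had differences of 0.11 ± 0.06 (limma adjusted p = 0.574) and 0.10 ± 0.06 (limma adjusted p = 0.649). The CYP39A1 value is that of its set in the middle bracket. Its sets in the dimmest bracket, 220432_s_at at -0.09 and 244407_at at 0.16, each overlapped and disagreed in sign.

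Of 5 steroid hormone enzymes, 1 had a difference above 0 and 4 below. CYP11B2, the aldosterone synthase, differed by -0.14 ± 0.07 without overlap (limma adjusted p = 0.532). The vitamin D enzymes CYP24A1, CYP27B1 and CYP2R1, which degrade or activate the hormone, differed by 0.06 ± 0.09, -0.05 ± 0.07 and -0.02 ± 0.09, all with overlap. CYP20A1, a P450 with no settled substrate, had -0.12, -0.01 and -0.03 in SDC1 siRNA arrays, against 0.01, 0.34 and 0.21 in control siRNA arrays. The nearest arrays of the groups almost met, and the difference was -0.24 ± 0.09 (limma unadjusted p = 0.0291, adjusted p = 0.41). It kept an unadjusted p under 0.05 in 8 of 13 alternative settings. Of the 8 antisense, pseudogene and read-through symbols, 4 differences were above 0 and 4 below.

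The glucuronosyltransferases gave no gene with an unadjusted p under 0.05, where 10.6% of all genes had one. Their 8 differences ran from -0.17 to 0.09. UGT2B17, which glucuronidates testosterone, had 0.03, -0.12 and -0.03 in SDC1 siRNA arrays, against -0.09, 0.05 and 0.44 in control siRNA arrays, and differed by -0.17 ± 0.13 (limma adjusted p = 0.689). The difference was -0.020 without control siRNA replicate 3 and -0.28 without control siRNA replicate 1. UGT1A1, the bilirubin-conjugating enzyme, differed by 0.09 ± 0.13 (limma adjusted p = 0.865), UGT3A1 by 0.06 ± 0.10 (limma adjusted p = 0.89) and UGT1A6, which conjugates small phenols, by -0.04 ± 0.07 (limma adjusted p = 0.908). The groups overlapped in all 4. The interval of UGT1A1 ran from -0.22 to 0.39. Of the UGT1A genes only UGT1A1 and UGT1A6 have probe sets of their own here, because the UGT1A transcripts share most of their exons.

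The 8 sulfotransferases likewise had no gene with an unadjusted p under 0.05, where 10.6% of all genes had one. Their differences ran from -0.05 to 0.19. SULT2A1, which sulfates steroids such as dehydroepiandrosterone, had 0.01, 0.04 and 0.10 in SDC1 siRNA arrays, against -0.45, 0.04 and -0.01 in control siRNA arrays. The low value was that of control siRNA replicate 1, where the probe set 206292_s_at stood at -0.84. The difference was 0.19 ± 0.13 (limma adjusted p = 0.634), and 0.038 without that array. SULT4A1, a form of the brain, differed by 0.10 ± 0.10, SULT1B1, which acts on thyroid hormones, by 0.08 ± 0.10, and SULT1E1, the estrogen sulfotransferase, by -0.05 ± 0.08. Their limma adjusted p-values were 0.785, 0.833 and 0.873, with overlap in each. SULT1A1, the phenol sulfotransferase, was in the brightest bracket and differed by -0.01 ± 0.07.

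Many of these genes arose by duplication and lie in clusters, so neighbours were compared. In RefSeq order there were 8 clusters of at least 3 member genes whose starts lie within 500 kb of the next. All 5 genes of the CYP4 cluster on chromosome 1 (CYP4B1, CYP4Z2P, CYP4A11, CYP4X1 and CYP4Z1) had differences above 0, from 0.01 to 0.33. All 4 genes of the CYP3A cluster on chromosome 7 and all 3 of the chromosome 15 cluster (CYP11A1, CYP1A1 and CYP1A2) had differences below 0. The others were mixed: 3 above and 2 below in the GSTM cluster on chromosome 1, 2 and 5 in the UGT2 and SULT cluster on chromosome 4, and 2 and 1 in the GSTA cluster on chromosome 6. On chromosome 19 the CYP4F cluster had 3 above and 3 below, and the CYP2A, CYP2B, CYP2F and CYP2S1 cluster 4 and 4. Each gene with an unadjusted p under 0.05 in a cluster was the sole such gene there. Related genes can share probes, so equal signs within a cluster are not separate observations. Over the 37 member genes with 2 or more probe sets, all sets had the same sign in 11 (29.7%), against 44.0% of 10523 genes.

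**Figure D4:**
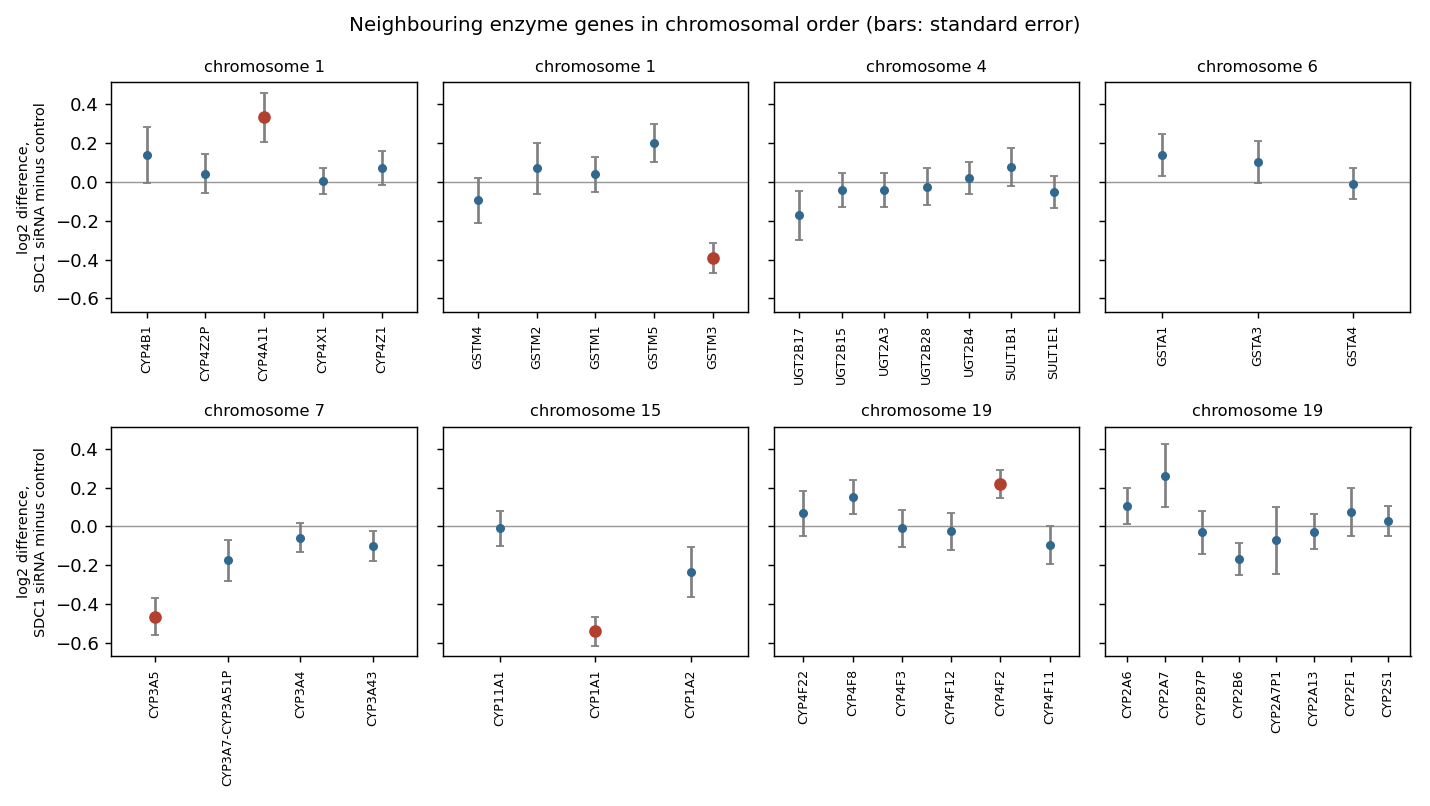
Log2 difference (SDC1 siRNA minus control siRNA, vertical axis) with its standard error for the genes of the 8 clusters, in chromosomal order. Red points have an unadjusted p under 0.05, and CYP3A5, CYP1A1 and GSTM3 lie below their neighbours while CYP4A11 and CYP4F2 lie above theirs.

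Genes that act around these enzymes were counted in 6 lists with 93 measured entries of 108, and none passed an adjusted p of 0.05. An unadjusted p under 0.05 was found for 6 of the 93 (6.45%), against 10.6% of all genes. Among 10 genes of the Ah receptor pathway, none had an unadjusted limma p under 0.05, 3 differences were above 0 and 7 below, and the median was -0.04. NQO1, a quinone reductase that the Ah receptor also induces, differed by -0.14 ± 0.07, the receptor's chaperone HSP90AA1 by 0.14 ± 0.07 and its partner ARNT by -0.20 ± 0.11. Of 15 nuclear receptors and their regulators, 9 were above 0 and 6 below. CEBPA, a transcription factor of liver and gut, was the 1 gene there with an unadjusted p under 0.05, at -0.26 ± 0.09 (limma adjusted p = 0.374). Among 14 genes of electron supply and heme synthesis, 7 lay on each side of 0 and none had such a p. POR, which passes electrons to microsomal P450 enzymes, differed by -0.19 ± 0.09 (limma adjusted p = 0.49).

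Of 17 NRF2 targets and glutathione genes, 8 were above 0 and 9 below, with no unadjusted limma p under 0.05. Among 23 other conjugation and cofactor enzymes 3 had such a p (13.0%, against 10.6% of all genes), all with lower values in SDC1 siRNA arrays. SLC35D1, which carries UDP-glucuronic acid into the endoplasmic reticulum, was at -0.36 ± 0.07 (limma adjusted p = 0.16). The ketosteroid reductases AKR1C2 and AKR1C3 were at -0.20 ± 0.07 (limma adjusted p = 0.401) and -0.31 ± 0.13 (limma adjusted p = 0.44). Of 14 drug transporters 2 had such a p (14.3%, against 10.6% of all genes), both with higher values. They were the organic anion carrier SLCO4A1 at 0.21 ± 0.06 (limma adjusted p = 0.319) and the efflux pump ABCC4 at 0.32 ± 0.10 (limma adjusted p = 0.323). The list medians ran between -0.04 and 0.02, where the median of all genes was 0.01.

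Enterocyte markers gave 13 differences above 0 and 2 below among 15 measured, with a median of 0.06, and 5 of them were in each bracket. Their average was 0.03, 0.06 and -0.00029 in SDC1 siRNA arrays, against -0.04, -0.11 and -0.02 in control siRNA arrays. Singly, 1 of the 15 (6.67%) had an unadjusted limma p under 0.05, against 10.6% of all genes. The groups did not overlap for 1 of the 15 (6.67%), against 16.7% of all genes. Of 6 hepatocyte markers none had an unadjusted limma p under 0.05, and of 3 leukocyte markers 1 had (33.3%, against 10.6% of all genes). Of 6 fibroblast markers 4 had such a p (66.7%, against 10.6% of all genes), in both directions. COL1A2 was at 0.37, and LUM at -0.62, COL3A1 at -0.29 and PDGFRB at -0.24. The groups did not overlap for 4 of the 6 (66.7%, against 16.7% of all genes), with 2 higher and 2 lower. The average over the fibroblast markers was -0.08, -0.05 and 0.0030 in SDC1 siRNA arrays, against -0.05, 0.20 and 0.03 in control siRNA arrays. These averages overlapped, but markers of opposite direction cancel in them. The fibroblast markers had 2 genes in the brightest bracket, 4 in the middle and 0 in the dimmest. These counts were 0, 4 and 2 for the hepatocyte markers, and 0, 1 and 2 for the leukocyte markers. Brackets are coarse, and whether a marker was absent could not be read from centred values. The markers' part in the enzyme values was not tested.

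**Figure D5:**
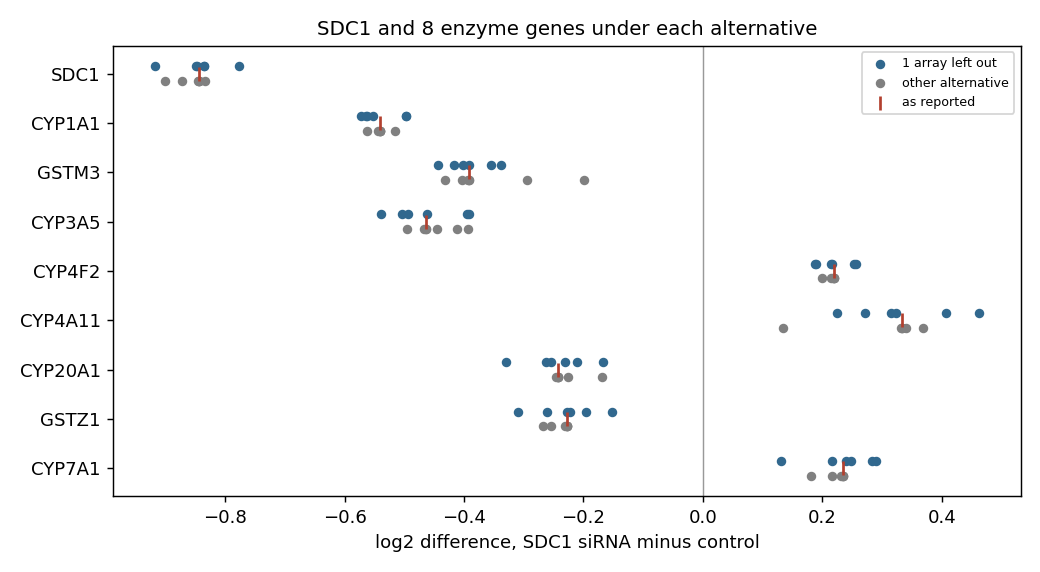
Log2 difference (SDC1 siRNA minus control siRNA, horizontal axis) of SDC1 and the 8 enzyme genes under each alternative setting, with the reported value as a red bar, settings that leave out an array in blue and the others in grey. No value crosses 0, and GSTM3 (-0.20 at its smallest) and CYP4A11 (0.13) move most when other probe sets are used.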

How the data were processed

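Total RNA of 3 SDC1 siRNA and 3 control siRNA samples was measured on Affymetrix arrays. The authors deposited log2 values; RMA was used, per the submitters' processing notes, and its version is not given in the sources used here. Every probe set has a median of 0 over the 6 arrays (54675 of 54675, tolerance 1e-06), and who centred them is not stated. Array number limits the precision. From these values gene means were formed and tested in limma 3.58.1 (R 4.3.3) with group as the sole term and Benjamini-Hochberg adjustment over 19775 genes, two-sided, after tests on simulated data. Brackets were read from storage steps (tolerance 3.1e-08), and one spanning 2 brackets counts in the lower. All 85 symbols matched RefSeq, and 60 had a promoter sequence.

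Members and lists were chosen with earlier results of these data known. Named genes are SDC1, all CYP1 and CYP3A genes, members with an unadjusted p under 0.05, otherwise the 4 lowest p-values of each family, and up to 3 per list. Further genes, among them CYP27A1, GSTT2, GSTP1, GSTA1, GSTO2, the GSTM genes, the vitamin D enzymes, SULT1A1 and the markers, and the 9 gene pairs, were chosen after their values were seen. Another 23 probe sets that name a member-like symbol with other symbols were not members. No 2 arrays were copies: their median absolute differences ran from 0.09 to 0.15.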

Additional observations from a re-analysis of the deposited data

How the results depend on the processing

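Over all genes the 5 calls became 0 with the replicate block, 0 to 1 with each array left out, 3 when a gene's probe sets were all averaged, 40 with array weights, 11 in the brighter brackets, 0 with single probe sets and 0 at an adjusted p of 0.01. Of the member genes, none was called in the reported fit and 1 (CYP1A1) with array weights. The 8 members with an unadjusted p under 0.05 became 5 to 10 with each array left out (5 without SDC1 siRNA replicate 1), 5 without _x_at and _s_at sets and 14 with array weights. A pairing by replicate number was not seen: the deviations of same-numbered arrays from their group means correlated at -0.01, -0.26 and -0.11. Of the 3 SDC1 siRNA arrays, 0 correlated best with its own number. With 3 arrays per group this check cannot show that the arrays were unpaired. With the replicate block 8 members had such a p, 7 of them shared, and the adjusted p of SDC1 became 0.0931.

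Without _x_at and _s_at sets the family median was -0.21 for CYP1, -0.24 for CYP3A, -0.15 for UGT2 and -0.20 for GSTM. The genes left were CYP1A1 and CYP1B1-AS1 for CYP1, and CYP3A5 and CYP3A4 for CYP3A. UGT2 kept UGT2B15, UGT2B17 and UGT2B4, and GSTM kept GSTM3 alone. These medians thus describe fewer genes than the reported ones. For CYP1 the family median was 0.034 with single probe sets and -0.13 to -0.028 with each array left out. The family median was 0.025 for GSTT in the brighter brackets, where GSTT1 dropped out, and 0.069 for GSTO with single probe sets. With each array left out it ran from 0.0036 to 0.080 for CYP2, 0.023 to 0.13 for CYP4, -0.068 to 0.032 for other CYP, -0.060 to 0.060 for SULT, 0.017 to 0.099 for GSTA, -0.070 to 0.068 for GSTM and 0.038 to 0.15 for GSTT. The median of UGT1 (-0.036 to 0.098) and that of UGT2 (-0.11 to 0.030) also took both signs. The sign also turned for UGT1 in the brighter brackets (-0.035, from UGT1A6 alone) and GSTO with all probe sets averaged (0.021). Signs turned for CYP1B1 with all its probe sets averaged (-0.0018) and UGT3A1 with array weights (-0.029). With an array left out they also turned for UGT1A1 (-0.048 to 0.24), UGT3A1 (-0.032 to 0.14), SULT1B1 (-0.027 to 0.15), SULT1E1 (-0.10 to 0.014), GSTP1 (-0.0023 to 0.097) and GSTK1 (-0.022 to 0.13). The cause was not tested. Genes with no probe set left, 18 without _x_at and _s_at sets and 26 in the brighter brackets, have no value.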

Other observations

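Among the 23 probe sets that name several genes including a P450 or conjugating enzyme, none passed a limma adjusted p of 0.05 over all probe sets tested singly, and 2 had an unadjusted p under 0.05 (8.70%, against 8.33% of all probe sets). The probe set 208596_s_at, which names 9 UGT1A genes, had 0.53, 0.52 and 0.13 in SDC1 siRNA arrays, against -0.15, -0.26 and -0.13 in control siRNA arrays. Its groups did not overlap, and the difference was 0.57 ± 0.12 (limma adjusted p = 0.359), in the dimmest bracket. The other probe sets that name the same 9 genes had other values: 206094_x_at, in the middle bracket, gave -0.14 ± 0.11 and 215125_s_at, in the dimmest, 0.18 ± 0.12, both with overlap. The probe set 208596_s_at cannot be assigned to UGT1A1 or UGT1A6, whose own probe sets gave 0.09 and -0.04. The probe set 216607_s_at, which names LRRD1 and CYP51A1, the lanosterol demethylase of cholesterol synthesis, had -0.08, -0.28 and -0.09 in SDC1 siRNA arrays, against 0.15, 0.11 and 0.08 in control siRNA arrays. The groups did not overlap, and the difference was -0.26 ± 0.09 (limma adjusted p = 0.507). Both probe sets were picked after their values were seen.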
